A study of Mus musculus with 12 samples.

Results

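Mismatch repair corrects bases that are mispaired or looped out when DNA is copied. The account below covers 6 genes of this pathway, *Msh6*, *Msh3*, *Pms2*, *Pms1*, *Mlh3* and *Exo1*, which were taken by symbol from the 24091 genes of the expression table, and all 6 were found. The values come from RNA sequencing of 12 samples of mouse cerebellum and medulloblastoma (MB) in 4 groups of 3. Tumors and the adjacent cerebellum of the same mice (GB344, GB359 and GB370) carried the genotype Brca2-mut;Trp53-mut. Control cerebella came from Brca2-mut;Trp53-WT mice (GB361, GB508 and GB512) and from Brca2-WT;Trp53-mut mice (GB517, GB519 and GB520), which the study describes as age-matched adults. Every group therefore carried at least 1 of the 2 mutations, and none was wild type for both. Brca2-mut stands for a conditional deletion of exons 3 and 4 made by an hGFAP-Cre transgene, which is active in much of the central nervous system, and Trp53-mut for a germline knockout. Whether the Brca2-WT;Trp53-mut mice carried the Cre transgene is not given in the sources used here, and tumor-bearing mice were collected at a humane endpoint rather than at a set age.

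Repair begins when a MutS dimer binds the mispaired site. *Msh6* and *Msh3* are the variable subunits of the MutS dimers and compete for a shared partner: the dimer with *Msh6* binds base mismatches and small loops, and the dimer with *Msh3* binds larger insertion and deletion loops. A MutL dimer is then recruited, whose variable subunit is *Pms2*, *Pms1* or *Mlh3*. *Pms2* holds the endonuclease that nicks the new strand, *Mlh3* is best known for crossover formation in meiosis, and the role of *Pms1* in repair is small. *Exo1* is the exonuclease that removes the nicked strand before it is filled in by a replicative polymerase. The pathway acts behind the replication fork, and inherited loss of mismatch repair in people is known to cause brain tumors as well as colorectal cancer. Sonic hedgehog (SHH) MB arises from granule cell progenitors (GCPs), which divide in the young cerebellum and have left the cell cycle in the adult.

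Values are TPM, estimated transcripts of a gene after scaling for transcript length and to a fixed total per sample, so levels can be set side by side between genes. The largest entry, the same in every sample, took from 4.25% (adjacent cerebellum of GB359) to 11.5% (control of GB508) of the TPM. The share left to all other genes therefore differed between samples. The read depth behind them is unknown. Between 15088 and 15803 genes per sample reached 1 TPM, and no 2 samples held identical values. Markers of GCPs and granule neurons separated tumors from control cerebella. The summed TPM of 6 GCP markers was between 1828 and 2008 in tumors and between 39.9 and 54.4 in control cerebella. That of 6 granule neuron markers was between 116 and 394 in tumors and between 2627 and 3384 in controls. In the adjacent cerebella the GCP sum was between 86.1 and 585, above all controls, and the granule neuron sum between 2081 and 2795. *Trp53* was listed at 47.1 to 49.4 TPM in Brca2-WT;Trp53-mut and 33.1 to 37.2 TPM in Brca2-mut;Trp53-WT cerebella, and *Brca2* at 3.24 to 4.40 and 3.396 to 3.794 TPM. Gene totals count transcripts of a disrupted allele too, so these values do not check the genotypes. In bulk tissue, fewer cells of a type and less RNA per cell cannot be told apart.

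The positions and neighbours of the genes were read from GENCODE vM21 on GRCm38, the build of the authors' transcripts. *Msh6* lies on chr17:87975062-87990892 (plus strand, 10 exons, 1358 amino acids) and *Msh3* on chr13:92211872-92355003 (minus strand, 24 exons, 1095 amino acids). *Pms2* lies on chr5:143909964-143933968 (plus, 15 exons, 859 amino acids), *Pms1* on chr1:53189187-53297018 (minus, 13 exons, 917 amino acids) and *Mlh3* on chr12:85234520-85270599 (minus, 12 exons, 1411 amino acids). *Exo1* lies on chr1:175880581-175913489 (plus, 15 exons, 837 amino acids), on the same chromosome as *Pms1*. Exon counts and protein lengths are those of the principal transcript.

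The MutL genes *Pms1* and *Pms2* each start head to head with another gene, and both neighbours were measured. *Pms1* and *Ormdl1*, a regulator of sphingolipid synthesis, start 77 bases apart, and *Pms2* and *Aimp2*, a scaffold of the aminoacyl-tRNA synthetase complex, 117 bases apart.

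Tumors were first compared with the 6 control cerebella. *Exo1* and *Msh6* were higher in MB, 60.1-fold and 2.53-fold in mean TPM, whereas *Msh3* differed by less than the spread between samples. *Pms2* and *Pms1* lay higher in every tumor than in any control by a smaller fold, and *Mlh3* was lower than any control in 2 of 3 tumors. A gene was called when limma on log2(TPM + 1) gave both an adjusted p below 0.01 and a change of 1 or more on the log2 scale in either direction. By this rule 2 of the 6 members were higher and 0 were lower, where 14.4% of the 16241 genes tested were higher and 21.5% were lower. With no fold change minimum, 4 of the 6 members were higher, against 26.9% of all genes. The same 4 had every tumor above every control, against 28.3% of all genes. The median log2 fold change over all genes was −0.11.

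**Figure D1:**
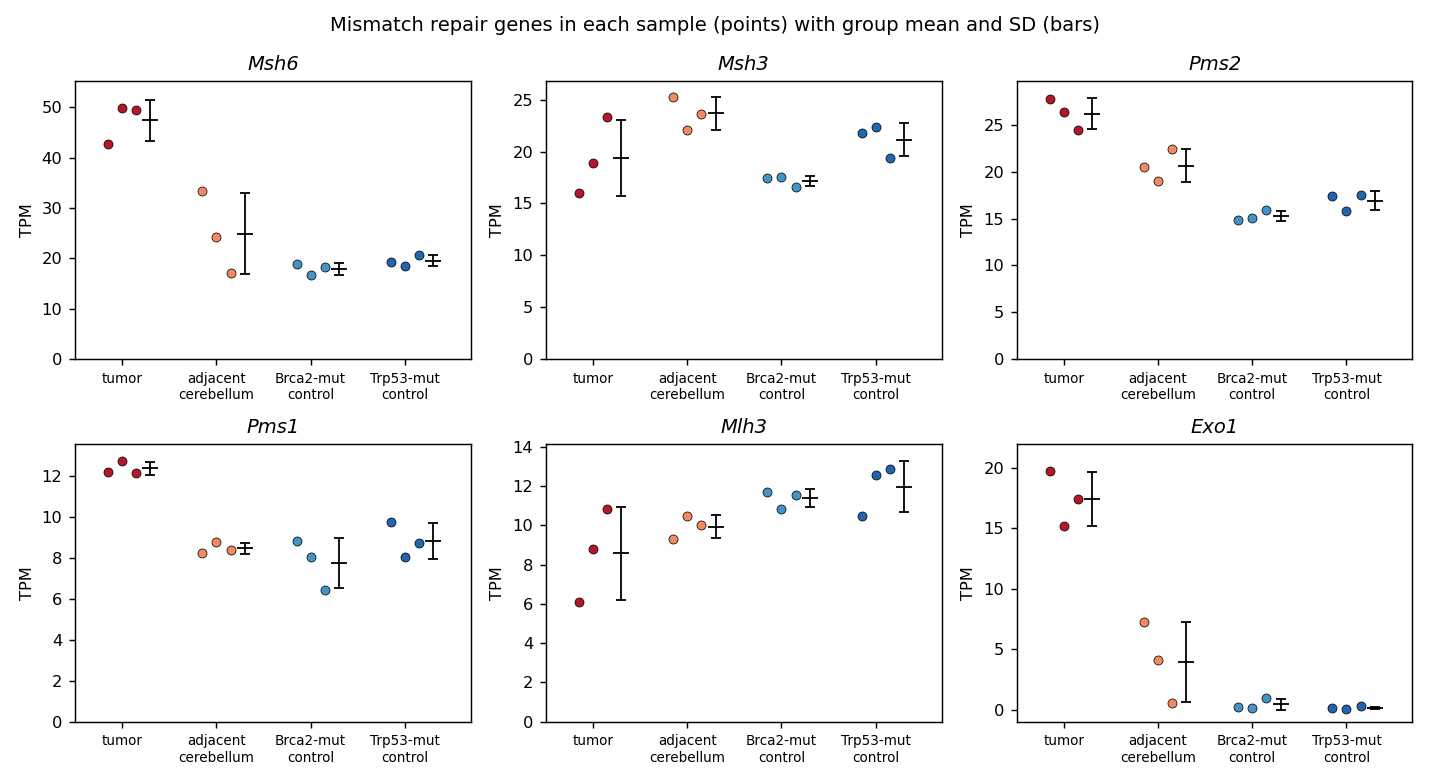
TPM of the 6 mismatch repair genes in each of the 12 samples (points, in the order of the mouse numbers within a group), with the mean and SD of the 3 samples of each group beside them. *Msh6* and *Exo1* of all tumors sit above all other samples, the adjacent cerebella spread widely for both genes, and *Msh3* of tumors overlaps that of controls.

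*Msh6* was the most abundant member in tumors. It stood at 42.8, 49.9 and 49.5 TPM in the tumors of GB344, GB359 and GB370. In Brca2-mut;Trp53-WT cerebella it stood at 18.8, 16.6 and 18.3 TPM, and in Brca2-WT;Trp53-mut cerebella at 19.3, 18.5 and 20.7 TPM. All tumors were above all controls, and the control genotypes overlapped. The 3 tumors averaged 47.4 ± 3.98 TPM (SD) and the 6 controls 18.7 ± 1.31 TPM (SD), which gave a log2 fold change of 1.29 ± 0.092 (SE) with a limma adjusted p of 5.27e-07. Of the genes tested, 89.2% had a lower fold change. The call held in all 20 other settings, with log2 fold changes between 1.24 and 1.43.

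*Msh3*, the subunit that *Msh6* competes with, gave no such difference. Tumors held 16.0, 18.9 and 23.3 TPM. The controls held 17.4, 17.5 and 16.6 TPM in Brca2-mut;Trp53-WT mice and 21.8, 22.4 and 19.4 TPM in Brca2-WT;Trp53-mut mice, so that the tumors spanned the range of both. The log2 fold change was 0.01 with a 95% confidence interval of −0.30 to 0.32 (limma adjusted p = 0.947). The interval leaves room for a change of that size in either direction, and the sign turned against the Brca2-WT;Trp53-mut cerebella alone (−0.13).

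The *Msh6* to *Msh3* ratio compares both MutS subunits within a sample, so that scaling between samples cancels. It was 2.67, 2.63 and 2.12 in the tumors. In the 6 controls it lay between 0.827 and 1.10, near parity. The mean ratio was 2.48 ± 0.305 (SD, n = 3) in tumors and 0.986 ± 0.115 (SD, n = 6) in controls. The difference of mean log2 ratios was 1.33, with an exact two-sided permutation p of 0.0119 (the smallest that 84 splits allow) and an adjusted p of 0.0238 over 6 ratio tests. All 3 tumors lay above all 6 controls.

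The starts were searched for the letters of 3 sites known from cell cycle genes in the RefSeq promoter table (GRCm38.p6), which holds 32851 windows of 250 bases before to 50 after a start. The E2F letters searched were TTTGGCGC, TTTCGCGC, TTTCCCGC and TTTGCCGC, the CHR letters TTTGAA and TTCGAA, and the third was CCAAT, all on both strands. E2F letters were in 2.26% of all windows, CHR letters in 19.23% and CCAAT in 37.41%. The windows of 4 members were read, those of *Msh6*, *Pms2*, *Pms1* and *Mlh3*. Of these, *Msh6* held E2F letters, none held CHR letters, and all 4 held CCAAT. No window was held for *Exo1* and that of *Msh3* was not read, so neither gene was searched.

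The match to the letters of E2F, a family of factors of S phase genes, is printed in capitals within 30 bases of *Msh6*. The match lies at bases 16 to 23 counted from the RefSeq start, which lies before the GENCODE start given above. The 30 bases are chr17:87975054-87975083, plus strand.
Msh6: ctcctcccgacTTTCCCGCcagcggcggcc

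The 250 bases before the RefSeq start of *Msh6* (chr17:87974800-87975049, plus strand), the member of the MutS dimers that was higher in tumors, are 70.8% G or C and hold 1 CCAAT on the opposite strand, in capitals, 34 to 30 bases before the start.
Msh6: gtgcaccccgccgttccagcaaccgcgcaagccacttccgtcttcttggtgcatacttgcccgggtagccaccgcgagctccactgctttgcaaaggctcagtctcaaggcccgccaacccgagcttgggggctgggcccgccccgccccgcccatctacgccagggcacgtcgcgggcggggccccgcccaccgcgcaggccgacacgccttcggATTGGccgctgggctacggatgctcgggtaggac

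**Figure D2:**
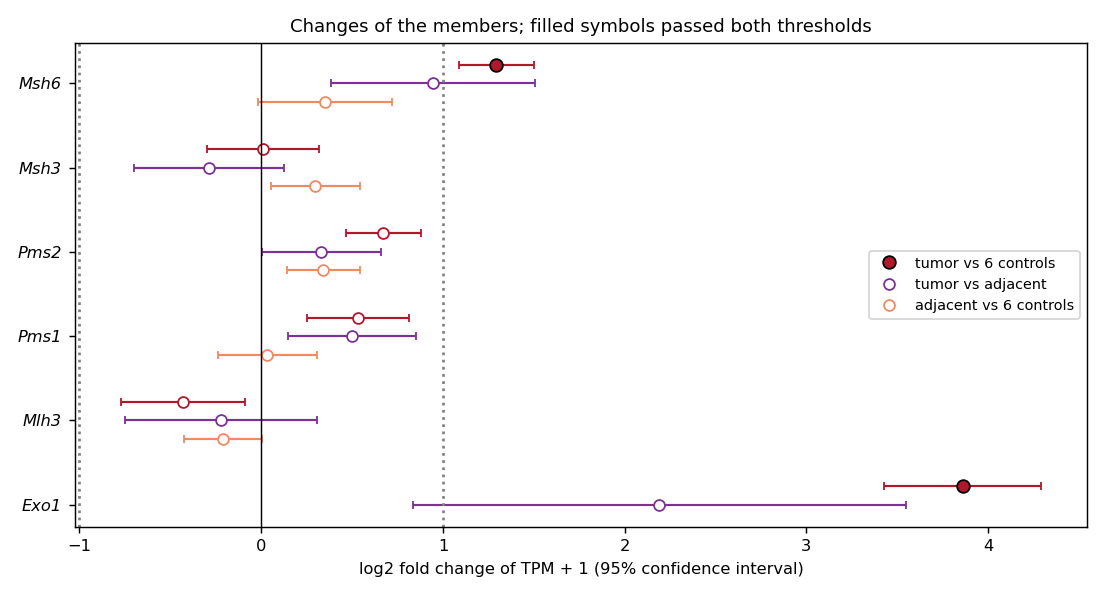
Log2 fold changes of TPM + 1 (horizontal axis) with 95% confidence intervals for the 6 members (vertical axis) in 3 comparisons, the dotted lines marking the fold change minimum and filled symbols marking members that passed both thresholds. Only *Msh6* and *Exo1* in tumors against the 6 controls are filled, and the interval of *Msh3* in that comparison spans 0. *Exo1* has no point for adjacent against control cerebella because it did not pass the expression filter there.

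*Pms2*, the MutL endonuclease subunit, was the second most abundant member in tumors. The tumors held 27.8, 26.4 and 24.5 TPM, and the 6 controls between 14.8 and 17.5 TPM (median 15.8). Its log2 fold change of 0.67 ± 0.092 (SE) had a limma adjusted p of 7.83e-05 but lay under the fold change minimum. All tumors were above all controls without overlap.

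*Pms1* stood at 12.2, 12.7 and 12.2 TPM in tumors, the narrowest spread of the members there, and at 6.43 to 9.77 TPM in controls (median 8.37). Its log2 fold change was 0.53 ± 0.125 (SE) with a limma adjusted p of 0.00312, again under the fold change minimum. Here too the groups did not overlap.

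*Mlh3*, the meiotic MutL subunit, ran the other way. Tumors held 6.12, 8.78 and 10.8 TPM and controls 10.5 to 12.9 TPM (median 11.6), so that the tumor of GB370 overlapped the controls and those of GB344 and GB359 were below them. The log2 fold change of −0.43 ± 0.154 (SE) had a limma adjusted p of 0.0276 and was not called. *Pms1* and *Mlh3* thereby changed places: *Pms1* was above *Mlh3* in every tumor, and *Mlh3* was above *Pms1* in every control and adjacent cerebellum.

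The *Pms2* to *Mlh3* ratio was 4.54, 3.003 and 2.26 in tumors and between 1.25 and 1.66 in controls, without overlap. The difference of mean log2 ratios was 1.18 (exact two-sided permutation p = 0.0119, adjusted p = 0.0238 over 6 ratio tests). The *Pms2* to *Pms1* ratio was 2.28, 2.07 and 2.01 in tumors and between 1.68 and 2.47 in controls, which overlapped. That difference of 0.12 on the log2 scale had an exact permutation p of 0.357 (adjusted p = 0.429).

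For both head-to-head pairs, the bases from the neighbour's start to the outermost RefSeq start of the member, which lies before its GENCODE start, hold CCAAT letters on each strand, in capitals. They are printed as sequence upstream of members and neighbours that lay between 0.34 and 0.89 on the log2 scale. That of *Pms1* and *Ormdl1* has 63 bases (chr1:53297032-53297094, minus strand, in the direction of *Pms1*) and that of *Pms2* and *Aimp2* 53 bases (chr5:143909848-143909900, plus strand, in the direction of *Pms2*). A match is a run of letters and not a measured binding site.
Pms1: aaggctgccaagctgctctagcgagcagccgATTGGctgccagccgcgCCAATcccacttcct
Pms2: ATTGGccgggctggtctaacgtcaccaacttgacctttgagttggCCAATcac

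*Aimp2* stood at 101, 63.9 and 60.4 TPM in tumors and 34.2 to 44.3 TPM in controls (log2 fold change 0.89 ± 0.151 (SE), limma adjusted p = 3.55e-04), and *Ormdl1* at 25.9, 22.8 and 20.9 TPM and 17.1 to 18.5 TPM (0.34 ± 0.089 (SE), adjusted p = 0.00590). As for *Pms2* and *Pms1*, neither reached the fold change minimum and neither overlapped between groups. At its far end *Msh6* overlaps *Fbxo11*, a ubiquitin ligase subunit on the other strand, by 34 bases. The library kit is not stated to keep strand, and reads from the shared bases cannot then be told apart. *Fbxo11* gave 0.13 (limma adjusted p = 0.215) where *Msh6* gave 1.29. *Pms2* overlaps *Rsph10b*, on the same strand, by 934 bases and a predicted gene by 5794 bases, and neither was analysed here.

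**Figure D3:**
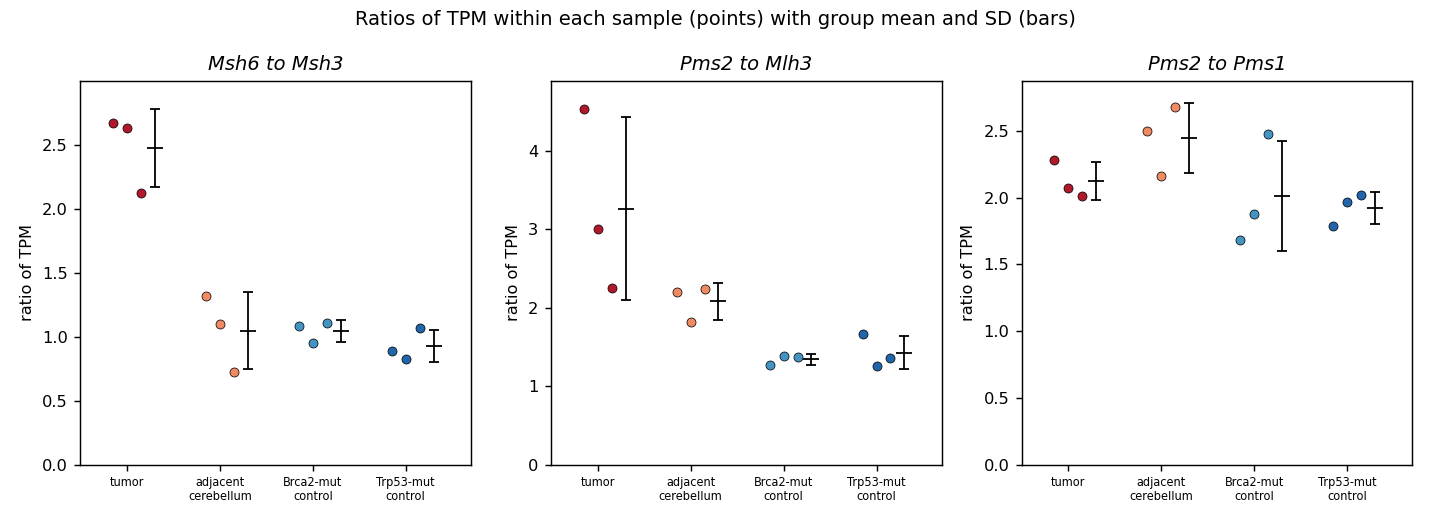
Ratios of TPM between 2 genes within each sample (points), with the mean and SD of each group of 3. The *Msh6* to *Msh3* ratio is above 2 in the 3 tumors and at or below 1.32 in the other 9 samples. The *Pms2* to *Mlh3* ratio is higher in tumors and adjacent cerebella than in controls. For GB370 it is nearly the same in tumor (2.26) and adjacent cerebellum (2.24), and tumors were not tested against adjacent cerebella. The *Pms2* to *Pms1* ratio overlaps between groups.

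*Exo1*, the exonuclease, had the largest change of the members. The tumors held 19.7, 15.2 and 17.4 TPM. It stood at 0.185, 0.170 and 0.929 TPM in Brca2-mut;Trp53-WT cerebella and at 0.112, 0.0768 and 0.268 TPM in Brca2-WT;Trp53-mut cerebella. Every control was under 1 TPM, and GB512 was the highest of them. The 3 tumors averaged 17.4 ± 2.26 TPM (SD) and the 6 controls 0.290 ± 0.320 TPM (SD). The log2 fold change on the log2(TPM + 1) scale was 3.86 ± 0.194 (SE), with a limma adjusted p of 5.78e-08, and 98.9% of genes tested had a lower one. This scale understates the change of a gene that is near 0 in controls: with a pseudocount of 0.01 the log2 fold change was 6.34. That value rests on control levels near 0 at an unknown read depth, so the size of the change is uncertain.

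GB512 also had the highest control values of genes of dividing cells. The summed TPM of 10 G2 and mitosis genes was 51.7 in GB512 and at most 12.6 in the other controls, and that of 10 S phase genes was 119 in GB512. The log2 fold change of *Exo1* was between 3.77 and 3.98 without single samples and was called each time.

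Ranked by level, tumors had *Msh6* first, then *Pms2*, *Msh3*, *Exo1*, *Pms1* and *Mlh3*. Of the neighbours in that order, only *Msh3* and *Exo1* overlapped between samples. In the control cerebella the order was *Msh3*, *Msh6*, *Pms2*, *Mlh3*, *Pms1* and *Exo1*, where the ranges of the first 3 overlapped and those below did not.

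Markers of the cell types in the tissue moved with these differences. Against controls, 6 of 6 GCP, 10 of 10 S phase and 10 of 10 G2 and mitosis genes were higher in tumors. The S phase genes had a median log2 fold change of 3.78 and ranged from *Slbp* (1.14) and *Tyms* (2.10) to *Mcm6* (4.96), *Rrm2* (5.18) and *Uhrf1* (5.45). The G2 and mitosis genes ranged from *Plk1* (3.92) and *Ccnb2* (4.08) to *Aurkb* (5.61), *Mki67* (6.06) and *Top2a* (6.71), and the GCP genes from the SHH pathway factors *Gli1* (3.35) and *Gli2* (3.62) to *Ccnd2* (6.15), *Mycn* (6.50) and *Atoh1* (7.61). Conversely 6 of 6 granule neuron, 5 of 5 Purkinje, 5 of 5 oligodendrocyte and 4 of 5 astrocyte and Bergmann glia markers were lower. The Purkinje sum was between 87.9 and 382 TPM in tumors and between 5596 and 9308 TPM in controls, and the oligodendrocyte sum between 74.9 and 277 TPM and between 3151 and 4923 TPM. Of microglia, choroid plexus and endothelium markers, 1 of 5 was higher, 1 of 5 lower and 1 of 4 lower. Of the 5 choroid plexus markers 0 had a log2 fold change above 0, with a median of −2.62. Their sum ranged widely over the controls, from 19.2 to 5179 TPM. Of all the markers listed, 1 GCP marker was listed at 0 in the control of GB508 and 1 choroid plexus marker at 0 in the tumor of GB344. The part of cell composition in the changes of the 6 members was not tested.

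The genes that complete the repair were read from a list of 17, which holds the sliding clamp (*Pcna*) and its loader (*Rfc1* to *Rfc5*), the single-strand binding protein (*Rpa1* to *Rpa3*), polymerase delta (*Pold1* to *Pold4*), the ligase *Lig1* and the cofactor *Hmgb1*. Of polymerase epsilon it holds only *Pole* and *Pole2*. Of these, 15 of 17 were higher in tumors than in controls and 0 were lower, with a median log2 fold change of 2.17 against −0.11 over all genes. Most also serve ordinary replication. The largest changes were those of *Pole* (3.86), which encodes the catalytic subunit of polymerase epsilon, its second subunit *Pole2* (3.003), and the clamp loader subunit *Rfc4* (2.83). The smallest among those called were *Rfc1* (1.30) and the polymerase delta subunit *Pold3* (1.15). *Pcna*, the clamp that activates the *Pms2* endonuclease, rose from 99.5 ± 7.63 TPM (SD, n = 6) to 577 ± 67.1 TPM (SD, n = 3). The 2 that were not called were *Rpa1* (0.28, limma adjusted p = 0.00957) and the accessory polymerase delta subunit *Pold4* (−0.33, adjusted p = 0.0259).

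A second list held 6 relatives and recruitment factors: the meiotic MutS proteins *Msh4* and *Msh5*, the helicases *Mcm8* and *Mcm9*, the histone methyltransferase *Setd2*, whose mark recruits the dimer with *Msh6* to chromatin, and the nuclease *Fan1*, which binds MutL proteins. Only *Mcm8* was called (log2 fold change 1.21, limma adjusted p = 4.85e-06), 1 of 6, and the median of the list was 0.36. *Setd2* averaged 65.1 ± 3.85 TPM (SD) over the 3 tumors and 53.0 ± 5.71 TPM (SD) over the 6 controls (0.30, adjusted p = 0.0243). *Fan1* was the lowest of the list (−0.48, adjusted p = 0.00611, under the fold change minimum).

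**Figure D4:**
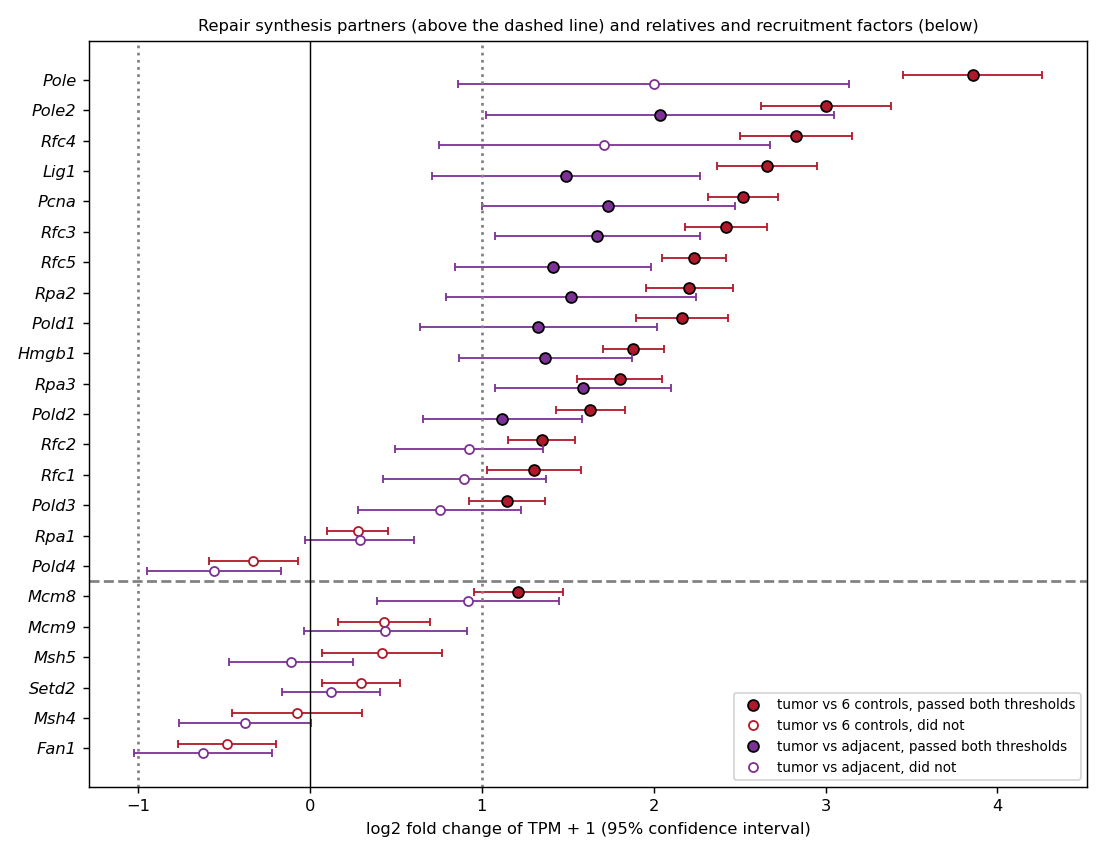
Log2 fold changes of TPM + 1 (horizontal axis) with 95% confidence intervals for 17 genes of repair synthesis (above the dashed line) and 6 relatives and recruitment factors (below it), in tumors against the 6 controls and against the adjacent cerebella, with filled symbols for genes that passed both thresholds. Of the upper 17 genes, 15 are filled against controls and 10 against adjacent cerebella. *Mcm8* alone is filled among the lower 6, and only against controls.

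Tumors were next compared with the cerebellum beside them in the same 3 mice, in a fit that did not pair samples by mouse. The adjacent samples differed widely from each other, and none of the 6 members was called by limma, and 4 of 6 had an unadjusted p below 0.05, near the 57.1% of all genes. Over all 15845 genes tested, 4.76% were called higher and 18.0% lower, with a median of −0.14. *Msh6* stood at 33.3, 24.3 and 17.2 TPM in the adjacent cerebella of GB344, GB359 and GB370. *Exo1* stood at 7.22, 4.07 and 0.554 TPM. For both genes every tumor was above every adjacent sample, and GB344 was the highest and GB370 the lowest of the adjacent samples.

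The log2 fold change was 0.94 ± 0.237 (SE) for *Msh6* (limma adjusted p = 0.0154) and 2.19 ± 0.570 (SE) for *Exo1* (limma adjusted p = 0.0178). Without the adjacent sample of GB344 both were called, at 1.17 and 2.71, and without that of GB370 *Exo1* was called at 1.51. *Msh6* was also called after median-of-ratios scaling, and both genes after quantile normalization. These scalings moved the median of all genes from −0.14 to 0.02 and 0.12, and the share of genes called that were higher from 20.9% to 34.4% and 42.2%. Leaving out single samples moved the number of genes called higher, 755 with all samples, to between 189 and 913. It was 189 without the tumor of GB370, 275 without that of GB359, 458 without that of GB344 and 210 without the adjacent sample of GB359.

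*Pms1* was the steadiest of the MutL subunits in this comparison. The adjacent cerebella held 8.21, 8.77 and 8.40 TPM, all within the range of the controls and below all tumors. The log2 fold change was 0.50 ± 0.148 (SE), with a limma adjusted p of 0.0288. *Pms2* stood at 20.5, 19.0 and 22.5 TPM in adjacent cerebella, below all tumors (0.33, adjusted p = 0.0850). In all, 4 of the 6 members had every tumor above every adjacent sample, against 23.7% of all genes.

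*Msh3* stood at 25.3, 22.1 and 23.7 TPM and *Mlh3* at 9.33, 10.46 and 10.03 TPM in the adjacent cerebella, and both overlapped the tumors. Their log2 fold changes were −0.29 (limma adjusted p = 0.208) and −0.22 (adjusted p = 0.441). After quantile normalization that of *Mlh3* was 0.15. Of the 17 repair synthesis genes, 10 of 17 were higher and 0 lower than in adjacent cerebella, and of the 6 relatives and recruitment factors 0 of 6 were called.

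The spread of the adjacent samples had an order for *Exo1*, *Msh6*, *Atoh1* and the summed S phase and G2 and mitosis genes. Taking the control mean as 0% and the tumor of the same mouse as 100%, *Exo1* of the adjacent cerebellum lay at 35.7%, 25.4% and 1.54% of the way in GB344, GB359 and GB370. *Msh6* lay at 60.5%, 18.0% and −5.03%. *Atoh1*, the transcription factor that defines GCPs, lay at 49.9%, 20.7% and 1.54%. The summed S phase genes lay at 46.1%, 25.3% and 1.82%, and the G2 and mitosis genes at 39.7%, 23.4% and 1.36%. For each of these the adjacent sample of GB344 lay nearest to its tumor and that of GB370 nearest to the control mean. *Pms2* had another order, at 37.7%, 28.0% and 76.3%, with GB370 nearest to its tumor. *Msh3*, *Pms1* and *Mlh3* were not placed in this way. Their levels in the adjacent cerebella did not run in the order GB344, GB359, GB370. The sums of granule neuron (2081, 2795 and 2707 TPM) and oligodendrocyte markers (1528, 4353 and 1884 TPM) did not either. Nor did those of astrocyte and Bergmann glia, choroid plexus and endothelium markers, whereas those of Purkinje and microglia markers did. The part of tumor cells in the adjacent samples was not tested.

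**Figure D5:**
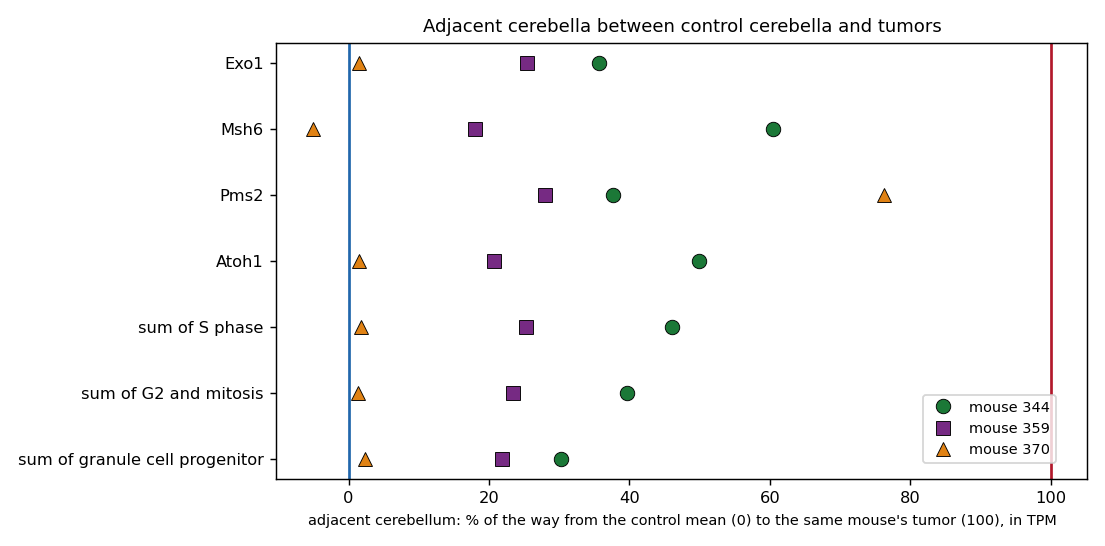
Position of the adjacent cerebellum of each of 3 mice (symbols) between the mean of the 6 controls (0, blue line) and the tumor of the same mouse (100, red line), in percent of the TPM difference, for 3 members, *Atoh1* and 3 summed marker lists. The order GB344, GB359, GB370 recurs in every row shown but that of *Pms2*, where GB370 lies at 76.3%. *Msh3*, *Pms1* and *Mlh3* are not shown.

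Adjacent cerebella were then compared with the 6 control cerebella, which share the tumor comparison's controls. None of the 5 members tested was called by limma (2 of 5 had an unadjusted p below 0.05, as did 34.5% of all genes), against 0.224% of 16091 genes called higher and 0.0124% lower. The 36 genes called higher became 564 without the adjacent sample of GB370 and between 0 and 11 without any other single sample. Of the genes called, 94.7% were higher, or 87.9% and 69.5% after median-of-ratios scaling and quantile normalization. This balance turned in other settings, with 11 higher and 29 lower without the adjacent sample of GB359, 7 higher and 22 lower against Brca2-WT;Trp53-mut controls alone, and 2 of each against Brca2-mut;Trp53-WT controls alone. *Pms2* was the member with the smallest p: all 3 adjacent samples, at 19.0 to 22.5 TPM, were above all controls (log2 fold change 0.34 ± 0.090 (SE), limma adjusted p = 0.0347). It was 1 of 5 members with every adjacent sample above every control, against 11.7% of all genes.

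The *Pms2* to *Mlh3* ratio was 2.20, 1.81 and 2.24 in adjacent cerebella, above all controls (difference of 0.59 on the log2 scale, exact permutation p = 0.0119, adjusted p = 0.0238). By contrast the *Msh6* to *Msh3* ratio, at 1.32, 1.10 and 0.726, spanned the controls (0.05, exact permutation p = 0.810, adjusted p = 0.810). The *Pms2* to *Pms1* ratio was 2.50, 2.16 and 2.68 (0.32, exact permutation p = 0.0476, adjusted p = 0.0714). *Msh6* gave 0.35 (limma adjusted p = 0.163), *Msh3* 0.30 (adjusted p = 0.0887), *Pms1* 0.03 (adjusted p = 0.868) and *Mlh3* −0.21 (adjusted p = 0.149). *Mlh3* was below all controls in the 3 adjacent samples, as were 7.64% of all genes.

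*Exo1* was under 1 TPM in too many samples to enter this fit. With no expression filter its log2 fold change was 1.67 ± 0.440 (SE), with a limma adjusted p of 0.0459 over 21109 genes, which does not pass. The adjacent samples of GB344 and GB359 were above all controls and that of GB370, at 0.554 TPM, was below the control of GB512. Neither the repair synthesis list (0 of 17) nor the S phase (0 of 9 tested) and G2 and mitosis lists (0 of 10) held a called gene, with medians of 0.69, 1.71 and 2.41, and *Atoh1* was 1 of 6 GCP markers called (4.62, limma adjusted p = 0.00883).

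The control genotypes were set against each other last. None of the 5 members tested was called by limma (1 of 5 had an unadjusted p below 0.05, as did 20.1% of all genes), where 2 of 15575 genes were called higher (0.0128%) and 7 lower (0.0449%) in Brca2-mut;Trp53-WT cerebella. *Msh3* was the only member without overlap, lower at 16.6 to 17.5 TPM against 19.4 to 22.4 TPM, and 20.3% of all genes were lower in this way. Its log2 fold change was −0.28 ± 0.088 (SE) with a limma adjusted p of 0.152. The other 4 had log2 fold changes between −0.17 and −0.06. *Exo1*, with no filter, gave 0.27 (95% confidence interval −0.21 to 0.76, adjusted p = 0.556). The summed TPM of 5 choroid plexus markers was between 19.2 and 876 in Brca2-mut;Trp53-WT and between 3960 and 5179 in Brca2-WT;Trp53-mut cerebella, and that of 5 Purkinje markers between 7710 and 9308 and between 5596 and 6114. The part of these in the *Msh3* values was not tested.

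The genes whose log2(TPM + 1) was most like that of each member over the 12 samples were named by Pearson's r among 16497 genes. The 12 points fall in 4 groups and share the contrast of tumor with cerebellum, so the values are a description. *Exo1* was closest to *E2f2* (0.999), a transcription factor of the cell cycle, *Ttk* (0.998), a kinase of the spindle checkpoint, and *Gtse1* (0.997), which acts in G2 and mitosis. *Msh6* was closest to *Vangl2* (0.998), a planar cell polarity protein, and to the ubiquitin ligases *Nedd4* (0.993) and *Rnf2* (0.993).

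The other members had lower values of r. *Msh3* was closest to *Tfe3* (0.934), a transcription factor of lysosomal genes, *Arfrp1* (0.929), a GTPase of the Golgi, and *Mbd1* (0.898), which binds methylated DNA. Their tumor changes against controls lay between −0.05 and 0.08. *Pms2* was closest to *2900005J15Rik* (0.974), *Nom1* (0.971) and *Pus10* (0.963), and *Pms1* to *Milr1* (0.945), *Trmt10c* (0.937) and *Thsd7b* (0.937). *Mlh3* was closest to *Arl8b* (0.967), a GTPase of lysosome transport, *Tgfa* (0.963), a ligand of the epidermal growth factor receptor, and *Tmtc1* (0.954), which had log2 fold changes of −0.48, −0.94 and −1.28 in tumors.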

How the data were processed

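RNA was sequenced from 12 mouse samples in 4 groups of 3, grouped by the labelled tissue and genotype. The libraries were poly(A)-selected, and whether they keep strand is not stated. The values the authors deposited are TPM per gene, made with Salmon 0.8.1 on TxDb.Mmusculus.UCSC.mm10.knownGene 3.4.0 and tximport 1.20. TPM holds no counts, so the depth, counting errors and detection limits are unknown, and precision rests on the spread between mice. The study's own count test could not be used on these values.

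TPM were tested as log2(TPM + 1) with limma 3.58.1 (lmFit, eBayes with trend) in R 4.3.3. Genes entered a comparison when 3 or more of its samples reached 1 TPM, with only the groups compared in a fit and Benjamini-Hochberg adjustment over all genes tested. Genes were called at an adjusted p below 0.01 together with a change of 1 or more on the log2 scale. Fold changes of low genes are understated on this scale. Ratios of 2 genes were tested by exact two-sided permutation of 3 against 6 samples (84 splits, smallest p 0.0119), and 3 against 3 samples, which cannot go below 0.1, got no permutation test. The fit was tested on simulated data with independent samples and planted changes larger than the fold change minimum. Smaller changes and samples that share a mouse were not covered. Annotation and figures used Python 3.11.15, pandas 2.3.3, numpy 2.4.6 and matplotlib 3.10.9.

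Same-numbered tumor and adjacent samples come from 1 mouse by their titles. Their deviations from the group means correlated at 0.249, 0.176 and 0.152 over 15845 genes, and those of different mice at −0.163 to 0.018. Within a group the deviations cancel for each gene. The values of different mice are therefore tied to those of the same mouse and are no separate check. The mouse as a block was an alternative. Other alternatives were pseudocounts of 0.1 and 0.01, no filter, a minimum of 5 TPM, median-of-ratios and quantile scaling, no trend, all 4 groups in a fit, each control genotype alone, calls at an adjusted p below 0.05 whatever the fold, and each sample left out in turn with the genes tested kept. The members and gene lists were chosen with earlier results of these data known. Named genes are the members, counts of each list with its 3 largest and 2 smallest called changes (cell type lists other than GCP by counts only), head-to-head neighbours within 1000 bases, where reported, and the 3 genes most like each member; Pcna, Setd2, Fan1, Fbxo11 and Rsph10b were named after their values or positions were seen. Some genes are not reported here.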

Additional observations from a re-analysis of the deposited data

Results flagged for a closer look

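Exo1 stood out for 1 of the 6 control cerebella: GB512, at 0.929 TPM, was far above the other 5, at 0.0768 to 0.268 TPM. In TPM the gap was 0.776 of the whole range, above Dixon's limit for 6 samples. Genes were read for this in TPM only, and a flag can depend on the scale. GB512 also had the highest sums of the S phase genes (119 TPM) and the G2 and mitosis genes (51.7 TPM) among controls. The log2 ratio of Pms2 to Mlh3 stood out in the same way for GB517 (ratio 1.66, gap 0.632 of the range). The 6 controls hold 2 genotypes. Among normally distributed values chance alone gives such a gap in about 1 of 20 groups, where 9 were examined. Values near 0, as those of Exo1, need not be distributed in this way.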

How the results depend on the processing

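Of 391 changes of single members under other settings, 365 kept their direction and their side of the thresholds, 14 passed them and 12 turned sign. Msh3 in tumors against controls was −0.13 against the Brca2-WT;Trp53-mut controls alone and −0.12 to 0.13 without single samples. Mlh3 in tumors against adjacent cerebella was 0.15 after quantile normalization. Pms1 in adjacent against control cerebella was −0.030 after median-of-ratios scaling, −0.13 after quantile normalization, −0.052 against the Brca2-WT;Trp53-mut controls alone and −0.029 to 0.078 without single samples. Mlh3 between the control genotypes was 0.014 and 0.037 under both scalings. The cause was not tested.

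With an adjusted p below 0.05 whatever the fold, 5 members rather than 2 were called in tumors against controls, 3 rather than 0 in tumors against adjacent cerebella and 1 rather than 0 in adjacent against control cerebella, where 71.3%, 50.4% and 15.7% of all genes were called. In tumors against adjacent cerebella 1 member was called after median-of-ratios scaling, 2 after quantile normalization, 1 with all 4 groups in the fit and 0 to 2 without single samples. With the mouse as a replicate block 0 members were called, as without it: Msh6 and Exo1 had limma adjusted p of 0.0260 and 0.0155.

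Leaving out a tumor or adjacent sample leaves 28 splits of a ratio, and the smallest exact permutation p is then 0.0357. After adjustment this lies above 0.05, the limit used for ratios, so no ratio can pass. The log2 ratio differences stayed between 1.27 and 1.43 for Msh6 to Msh3 and 0.92 and 1.42 for Pms2 to Mlh3 in tumors, and between 0.53 and 0.69 for Pms2 to Mlh3 in adjacent cerebella. Pms2 to Pms1 in adjacent cerebella was 0.25 to 0.41 and passed without GB512 (0.39, exact permutation adjusted p = 0.0268), and Msh6 to Msh3 was −0.13 to 0.30.

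Counts over all genes moved too. With an adjusted p below 0.05 whatever the fold they were 11573 against 5830 in tumors against controls, 7980 against 3607 in tumors against adjacent cerebella, 2524 against 38 in adjacent against control cerebella and 71 against 9 between control genotypes. Without the adjacent sample of GB359 the 3607 became 2377. The 38 were 4 with no filter, 58 and 59 under both scalings, 10 without the trend, 24 with all 4 groups and 4 against Brca2-mut;Trp53-WT alone, and 0 to 586 without single samples. The 9 were 2 with a pseudocount of 0.01, 21 with all 4 groups, 3 or 4 with no filter, a minimum of 5 TPM, either scaling or no trend, and 4 to 29 without single samples, the 29 without GB361. Depth is unknown, so no detection limit can be set for Exo1, which was under 1 TPM in every control.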
